A study of Medicago truncatula with 6 samples.

Results

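The 7 Medicago truncatula genes described here, of 50897 genes listed in the count files, encode parts of the machinery that lets rhizobia enter root hairs. They were taken by identifier, with earlier results of these data known: LIN (Medtr1g090320), vapyrin (Medtr6g027840), RPG (Medtr1g090807), CBS1 (Medtr6g052300), FLOT2 (Medtr3g106420), FLOT4 (Medtr3g106430) and SYMREM1 (Medtr8g097320). The count files hold no gene names and no sequences, so the names rest on these identifiers. The annotation given by the study calls LIN a LIN-like E3 ubiquitin ligase, vapyrin an ankyrin repeat protein, RPG a myosin heavy chain-like protein, FLOT4 a band 7 domain protein and CBS1 a CBS domain protein. For FLOT2 and SYMREM1 no annotation was at hand to check the name. All 7 were found in every library.

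RNA came from root hairs of 5 days old seedlings of wild type Jemalong A17. The roots received sterile water (control) or 10 nM synthetic Nod factor (NF), a lipochitooligosaccharide by which rhizobia announce themselves to the legume, either 4 h or 20 h before harvest. Each sample pooled the hairs of 100 plants, from roots without their tip, and NF was given in place of bacteria. Values come from 5 libraries, replicates 1 and 2 of each NF time (NF 4 h, NF 20 h) and replicate 2 of the control. The other control replicate is not analysed here, and the control therefore has no SD. The label of the control carries 4 h, and a difference between NF 20 h and the control in treatment time cannot be told apart from NF.

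In the root hair of a temperate legume, rhizobia trapped in a curled tip are taken in through an infection thread, a tube of inverted plasma membrane and new cell wall that grows inwards at its tip. NF perception by LysM receptor kinases activates a nuclear calcium signal, transcription factors of the GRAS, NIN and ERN families and then genes for the thread itself. LIN, a U-box and WD40 repeat E3 ubiquitin ligase, vapyrin, a protein with a major sperm protein domain and ankyrin repeats, and RPG, a coiled-coil protein, are each needed for polar thread growth. Flotillins and the remorin SYMREM1 organise membrane microdomains around receptors and threads, and CBS1, with cystathionine beta-synthase domains, acts in infection and in nodule cells.

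The libraries held 39199411 to 47302574 counted pairs, a 1.21-fold range, and a count of 3 corresponded to 0.0634 to 0.0765 CPM (counted pairs scaled to the same library total). These floors and all counting intervals below cover counting error only. Root hair identity was checked with 8 genes taken as root hair markers, all found in every library, with a summed level of 3057 CPM in the control, 3376 and 3649 CPM after 4 h of NF and 3509 and 3510 CPM after 20 h. The summed level of 4 markers of other root cells was 19.4 CPM in the control. It was 49.0 and 51.3 CPM after 4 h of NF and 27.7 and 35.9 CPM after 20 h. The count files hold no gene names, so the names of these 4 markers also rest on their identifiers. In the control a peroxidase gene held 2045.5 CPM of the root hair sum. The lowest root hair markers there, RSL4-like (9.01 CPM) and Ole e I (4.17 CPM), lay within the range of the markers of other cells. SUNN, known from the root vasculature, had at most 7 counts and was at 0 in NF 20 h replicate 1, whereas SCARECROW (Medtr1g069725), known from the endodermis in Arabidopsis, rose by log2 2.36 (SE 0.24, 4 h) and 1.73 (SE 0.23, 20 h) (edgeR adjusted p = 0.0324 and 0.0394). SHORT-ROOT, a stele gene in Arabidopsis, lay at 0.417 CPM in the control, 2.70 and 1.45 CPM under NF at 4 h and 1.26 and 1.25 CPM at 20 h, and was not called (log2 2.31 and 1.58, edgeR adjusted p = 0.210 and 0.317). SOMBRERO, a root cap gene in Arabidopsis, was lower under NF, at 11.3 CPM in the control, 8.05 and 10.8 CPM at 4 h and 4.86 and 6.19 CPM at 20 h, and was not called (log2 −0.27 and −1.03, edgeR adjusted p = 0.929 and 0.184). The part of these markers in the results below was not tested. In pooled hairs, fewer responding cells and less RNA per cell cannot be told apart.

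Among the infection genes, RPG and CBS1 went from near the counting floor in water to at least 19.6 CPM under NF. FLOT4 was at 4.05 to 6.89 times the control in the NF libraries. RPG, CBS1 and FLOT4 passed the test at both times. Vapyrin was at 3.21 to 5.02 times the control in the NF libraries without passing the test. LIN was abundant with or without NF, and FLOT2 and SYMREM1 stayed near the floor. Each gene was tested with the edgeR quasi-likelihood test in a single fit of all genes kept by the expression filter (22091 genes), with Benjamini-Hochberg adjustment and a gene called at an adjusted p under 0.05. FLOT2 did not pass the filter, and 6 of the 7 genes were tested. At 4 h 3 were called upwards and 0 downwards, against 0.684% of all genes tested called in either direction, 0.525% upwards and 0.158% downwards. At 20 h the count was again 3 upwards and 0 downwards, against 1.47% in either direction, 1.1% upwards and 0.371% downwards. The genes were chosen with earlier results of these data known, so these counts are no independent evidence of a direction. The median log2 fold change of the 6 tested genes was 2.31 at 4 h and 2.03 at 20 h, and that of all genes tested −0.03 and 0.00. All 4 NF libraries lay above the control for 4 of the 6 genes, an order found for 19.6% of the genes tested. Both comparisons use the same control library, so they are not independent of each other.

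**Figure D1:**
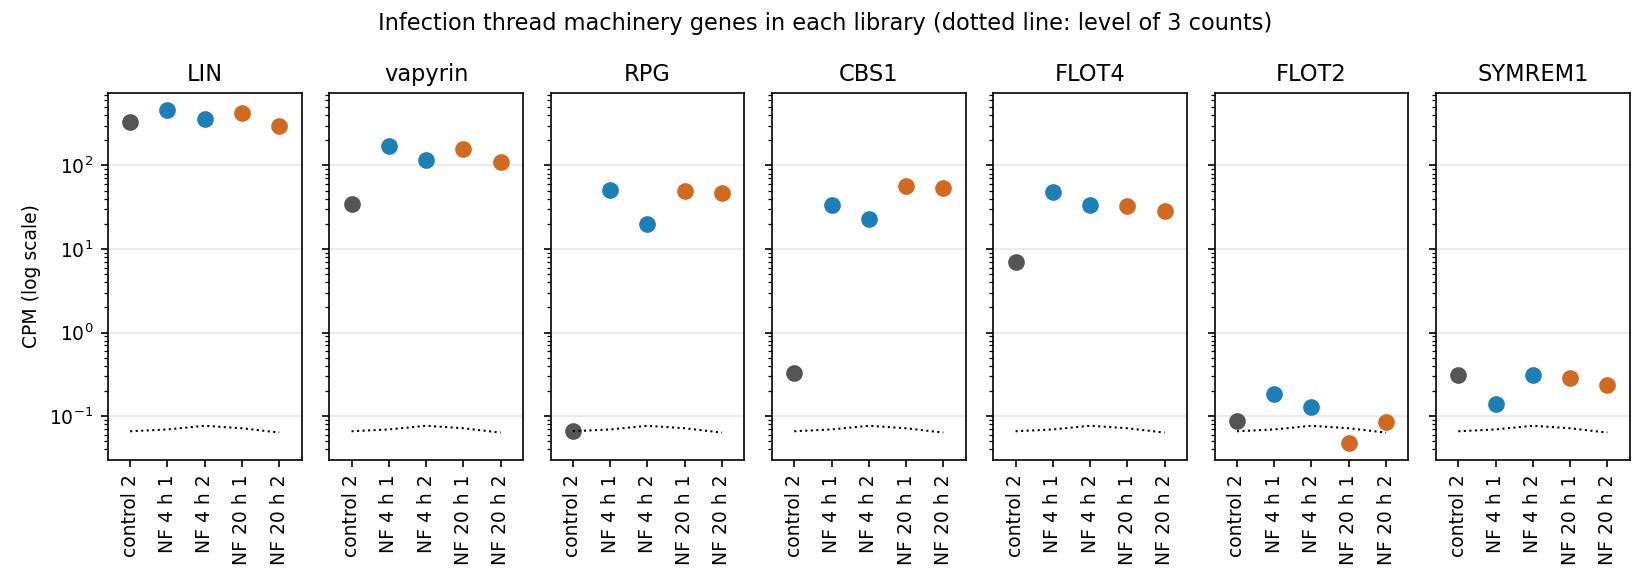
Level of each of the 7 infection thread genes in the 5 libraries, in CPM on a log axis, with 1 point per library (grey, control; blue, NF 4 h; orange, NF 20 h) and the level of a count of 3 as a dotted line. RPG lies on the dotted line in the control (3 counts) and between 19.6 and 50.3 CPM under NF, whereas LIN stays between 295 and 459 CPM throughout.

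RPG is needed in M. truncatula for the tight curling of hairs around bacteria and for straight thread growth. It had 3 counts in the control, 2182 and 770 after 4 h of NF and 2099 and 2198 after 20 h. This is 0.0658 CPM in the control, 50.3 and 19.6 CPM after 4 h of NF and 50.0 and 46.5 CPM after 20 h. Every NF library was far above the control, and NF 4 h replicate 2 was the lowest of the 4 NF libraries. The ratio of the pooled NF counts to the control was 543 at 4 h (95% exact counting interval 186 to 2637) and 732 at 20 h (250 to 3549), intervals whose width comes from the 3 counts of the control. The fitted log2 fold change was 8.99 at 4 h (SE 1.03) and 9.46 at 20 h (SE 1.03) (edgeR adjusted p = 0.0377 and 0.0284). By size of the fitted change RPG ranked 12 and 15 among the 22091 genes tested, ranks that also rest on the 3 counts of the control. Left out of the fit in turn, the NF libraries moved it between 8.16 and 9.52 at 4 h, where replicates 1 and 2 differed 2.56-fold, and between 9.40 and 9.51 at 20 h.

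CBS1 had 15 counts in the control, 1465 and 886 after 4 h of NF and 2408 and 2545 after 20 h. In CPM it lay at 0.329 in the control, 33.8 and 22.6 after 4 h of NF and 57.4 and 53.8 after 20 h. The control library was lowest. Both NF 20 h libraries lay above both NF 4 h libraries, an order found for 22.1% of the genes tested. The pooled ratio to the control was 86.6 at 4 h (95% exact counting interval 52.4 to 155) and 169 at 20 h (102 to 302). The fitted log2 fold changes, 6.41 (SE 0.42) at 4 h and 7.39 (SE 0.43) at 20 h, had the smallest p values of the 6 genes tested (edgeR adjusted p = 0.0206 and 0.0159).

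Vapyrin, which in M. truncatula is also needed for arbuscular mycorrhiza and binds LIN, was already well expressed in water-treated hairs. It lay at 34.3 CPM in the control, 172 and 118 CPM after 4 h of NF and 156 and 110 CPM after 20 h. All NF libraries were at least 3.21 times the control, and the spread between replicates (SD 38.5 CPM around a mean of 145 at 4 h, SD 32.6 around 133 at 20 h, n = 2) was smaller than the distance to it. The log2 fold change was 2.08 at 4 h (SE 0.34) and 1.96 at 20 h (SE 0.34), which did not pass the threshold (edgeR adjusted p = 0.0908 and 0.0705, unadjusted p = 0.00123 and 0.00161). The result depends on the fit, since 9 of the 13 alternatives at 4 h and 8 of the 13 at 20 h called vapyrin upwards. Without NF 20 h replicate 1 it was not called at 20 h. Adjusted p ran from 1.48e-08 (DESeq2) to 0.102 (edgeR) at 4 h and from 2.23e-07 (DESeq2) to 0.0767 (edgeR) at 20 h. DESeq2 called 569 and 906 genes in all, against 151 and 325 in the main fit.

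LIN, the E3 ligase named after the lumpy infections of its mutant, was the most abundant of the 7 genes. It was at 335 CPM in the control, 459 and 364 CPM after 4 h of NF and 422 and 295 CPM after 20 h. The control fell below both NF 4 h libraries and between the NF 20 h libraries. The log2 fold change was 0.29 at 4 h (SE 0.28) and 0.10 at 20 h (SE 0.28) (edgeR adjusted p = 0.917 and 0.953). No alternative called LIN, and the sign at 20 h turned when NF 20 h replicate 1 was left out (−0.19). Relative to transcript length LIN stood above 97.3% of all listed genes in the control, and above 96.7 to 98.1% in the NF libraries. These shares include genes without a count, since 27009 of the 50897 listed genes had a count in the control.

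The flotillins are scaffold proteins of membrane microdomains, and FLOT4 moves to the tips of root hairs and threads in inoculated M. truncatula. FLOT4 was at 7.04 CPM in the control, 48.5 and 33.5 CPM after 4 h of NF and 32.3 and 28.5 CPM after 20 h. The control library was lowest. Both NF 20 h libraries were below both NF 4 h libraries, an order found for 16.7% of the genes tested. The log2 fold change was 2.54 at 4 h (SE 0.29) and 2.11 at 20 h (SE 0.28) (edgeR adjusted p = 0.0377 and 0.0396), and FLOT4 was called in all 13 alternatives at each time.

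FLOT2 had 4 counts in the control, 8 and 5 after 4 h of NF and 2 and 4 after 20 h. These counts lie at or near the floor in every library, and no fold change is given. The files also list single reads (each mate counted by itself), and there FLOT2 had 10 in the control, 16 and 12 after 4 h of NF and 5 and 11 after 20 h. Reads with equally good hits on several transcripts had been removed before counting, between 7.42 and 8.44% of mapped reads per library. How many of them matched FLOT2 is not known, so its level is uncertain if another flotillin shares its sequence.

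SYMREM1, a remorin that binds NF receptors and stabilises membrane domains along threads, had 14 counts in the control, 6 and 12 after 4 h of NF and 12 and 11 after 20 h. In CPM this is 0.307 in the control, 0.138 and 0.306 after 4 h of NF and 0.286 and 0.233 after 20 h. No group stood apart. The log2 fold change was −0.47 at 4 h (SE 0.73) and −0.25 at 20 h (SE 0.72) (edgeR adjusted p = 0.964 and 0.954). The counting interval of the ratio to the control spanned 0.334 to 1.54 at 4 h and 0.414 to 1.76 at 20 h. Changes inside it were not detectable at this depth. A rise as large as that of FLOT4 lies outside it. The interval covers counting error only, with 1 control library, so it cannot exclude such a rise.

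**Figure D2:**
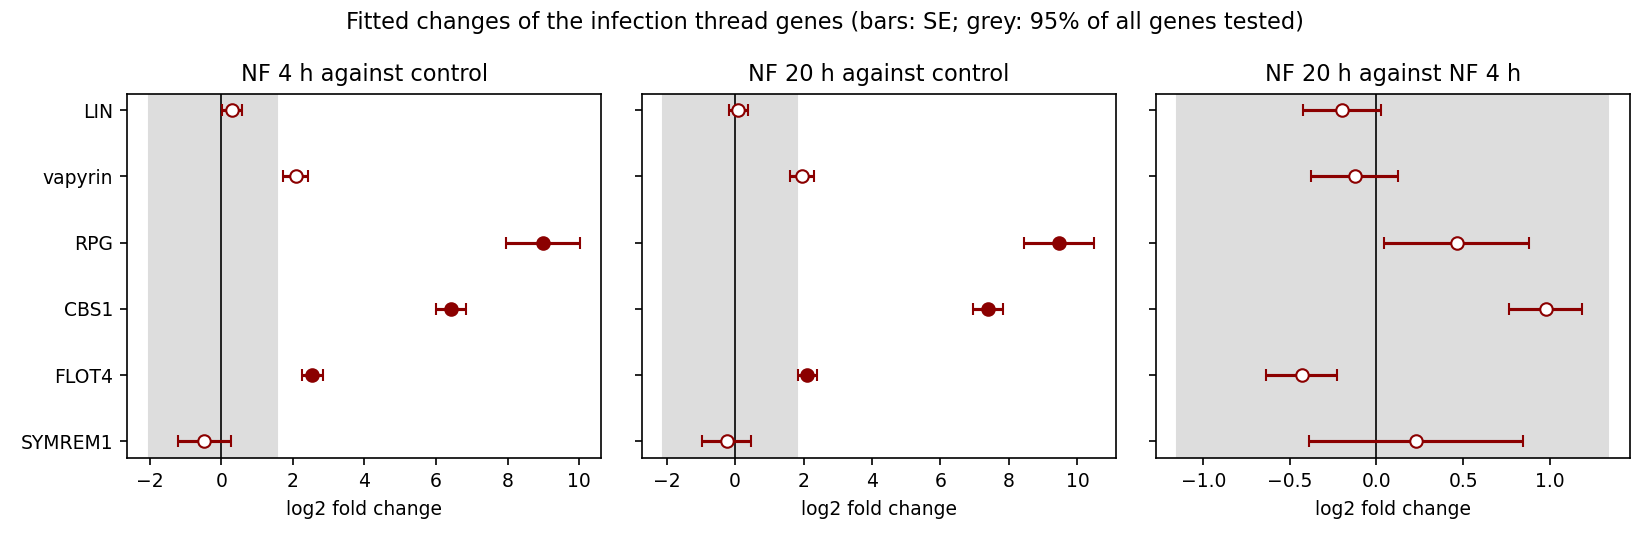
Fitted log2 fold changes of the 6 tested genes in the 3 comparisons, with SE bars; filled points passed the edgeR test and the grey band holds the central 95% of all genes tested. RPG, CBS1 and FLOT4 are filled in both comparisons with the control (lowest value 2.11), and no point is filled between the NF times, where the axis is narrower.

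The NF times were compared directly. By the edgeR quasi-likelihood test no infection gene was called (0 of 6, 1 at an unadjusted p under 0.05). Of all genes tested, 0.0498% were called (0.0362% upwards, 0.0136% downwards). DESeq2 and the edgeR exact test each called 1 infection gene, CBS1. These tools called 718 and 918 genes in all, against 11 by the quasi-likelihood test. The gene under the unadjusted limit was CBS1, 1.97-fold higher at 20 h (log2 0.98, SE 0.21, edgeR adjusted p = 0.166, unadjusted p = 0.00433). CBS1 was at 28.2 ± 7.91 CPM after 4 h and 55.6 ± 2.53 CPM after 20 h (SD, n = 2). FLOT4 was lower at 20 h in both libraries (41.0 ± 10.6 against 30.4 ± 2.65 CPM, log2 −0.43, SE 0.21, edgeR adjusted p = 0.576). Both NF 20 h libraries were above both NF 4 h libraries for 22.1% of the genes tested and below them for 16.7%, so an order of this kind is common. For RPG, vapyrin, LIN and SYMREM1 the libraries of the NF times overlapped, with log2 differences of 0.46 (SE 0.42), −0.12 (SE 0.25), −0.20 (SE 0.22) and 0.23 (SE 0.62).

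Levels of different genes were compared as FPKM, computed here from CPM and the listed transcript lengths. In the control the order was LIN (75.0 FPKM), vapyrin (15.0), FLOT4 (3.98), SYMREM1 (0.286), CBS1 (0.230), FLOT2 (0.0416) and RPG (0.0153), of which the last 4 rest on 3 to 15 counts. In NF 4 h LIN stood at 91.9 ± 15.1 FPKM and vapyrin at 63.4 ± 16.8 FPKM (SD, n = 2). FLOT4 (23.2 ± 6.02 FPKM) and CBS1 (19.7 ± 5.53 FPKM) overlapped, and RPG followed at 8.13 ± 5.04 FPKM. In NF 20 h CBS1 (38.8 ± 1.77 FPKM) was above FLOT4 (17.2 ± 1.50 FPKM) and RPG (11.2 ± 0.58 FPKM), and the ranges of LIN (65.9 to 94.4 FPKM) and vapyrin (48.1 to 68.3 FPKM) overlapped. The FPKM level of LIN was thus 5.00 times that of vapyrin in the control, and 1.45 and 1.38 times in NF 4 h and NF 20 h. SYMREM1 and FLOT2 were last in both NF treatments.

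The infection genes also differed between replicates. The 5 genes whose mean level reached 1 CPM were higher in replicate 1 than in replicate 2 at both times. In NF 4 h the ratio of replicate 1 to replicate 2 was 2.56 for RPG, 1.50 for CBS1, 1.46 for vapyrin, 1.45 for FLOT4 and 1.26 for LIN. In NF 20 h it was 1.43 for LIN, 1.42 for vapyrin, 1.13 for FLOT4, 1.08 for RPG and 1.07 for CBS1. Of the 17061 genes at this level, 35.0% were higher in replicate 1 at both times. The control library is replicate 2, and set against replicate 2 alone the ratio to it at 4 h and 20 h was 299 and 706 for RPG, 68.7 and 164 for CBS1, 4.75 and 4.05 for FLOT4, 3.43 and 3.21 for vapyrin and 1.08 and 0.879 for LIN. With replicate 1 it was 765 and 760, 103 and 174, 6.89 and 4.58, 5.02 and 4.55, and 1.37 and 1.26. All of these genes except LIN were above the control with either replicate. What differed between the replicates was not tested.

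**Figure D3:**
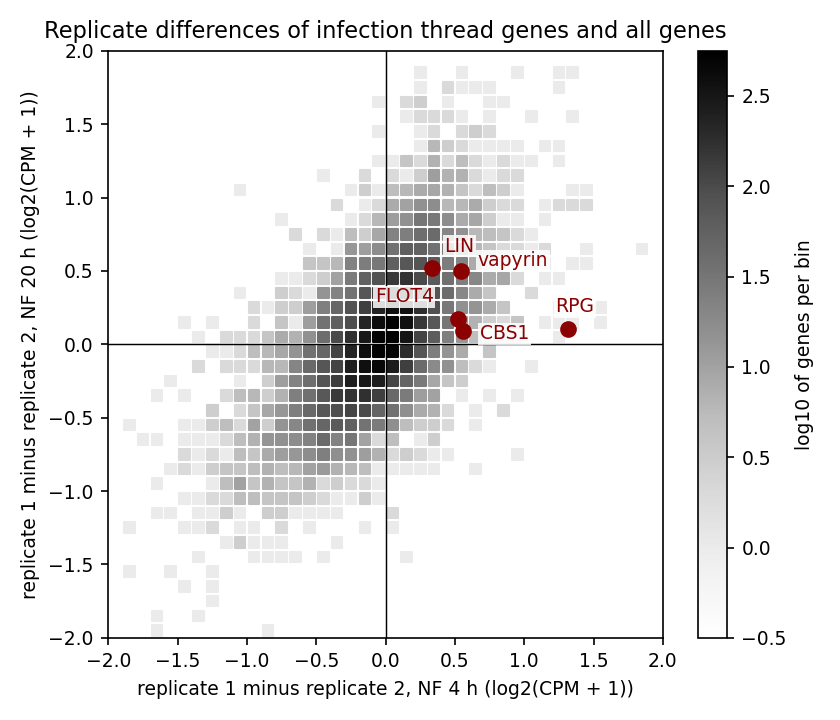
Difference between replicate 1 and replicate 2 on log2(CPM + 1), NF 4 h on the x axis and NF 20 h on the y axis, for the 17061 genes whose mean level reached 1 CPM (grey squares, log10 of genes per bin; genes beyond the axes are not drawn) and for 5 infection thread genes (red). All 5 lie in the upper right part of the plot, with RPG farthest out at 4 h (1.31) and vapyrin and LIN highest at 20 h (0.50 and 0.52).

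Genes acting before infection were read beside them. Of 8 signalling genes, all tested, 1 was called upwards at 4 h and 2 at 20 h, none downwards. Over all genes tested, 0.525% and 1.1% were called upwards. The median log2 fold change of the signalling genes was 0.04 and 0.35. The receptor kinase genes NFP and LYK3, the receptor-like kinase gene DMI2, the channel gene DMI1, the calcium and calmodulin dependent kinase gene DMI3 and its partner IPD3 had log2 fold changes between −0.26 and 0.43 at both times, and none was called. The GRAS transcription factor gene NSP1 (Medtr8g020840) rose from 6.78 CPM in the control to 62.8 and 48.7 CPM after 4 h of NF and 42.6 and 39.9 CPM after 20 h (edgeR adjusted p = 0.0233 and 0.0217). Its partner NSP2 (Medtr3g072710) was at 38.8 CPM in the control, at 40.5 and 37.7 CPM after 4 h of NF and at 105 and 85.4 CPM after 20 h, and was called at 20 h (log2 1.29, SE 0.19, edgeR adjusted p = 0.0485). The difference between the times did not pass the test (log2 1.28, edgeR adjusted p = 0.0891).

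Of 12 further genes linked to infection, most of them listed by the study because they responded in these samples, 4 were called upwards at 4 h and 10 at 20 h, none downwards. The list is therefore no independent evidence of a direction. Over all genes tested, 0.525% and 1.1% were called upwards. At an unadjusted p under 0.05 (edgeR) the list had 11 genes at 4 h and 12 at 20 h, and it had 0 called between the times. Its median log2 fold change was 3.54 at 4 h and 5.02 at 20 h, and the median of all genes tested was −0.03 and 0.00. NPL (Medtr3g086320), a pectate lyase that loosens the wall where threads start, had 2 counts in the control (0.0439 CPM) and stood at 34.0 and 17.4 CPM after 4 h of NF and 52.3 and 33.8 CPM after 20 h (edgeR adjusted p = 0.0324 and 0.0226). NIN, the transcription factor required for infection and nodule formation, rose from 4.34 CPM in the control to 27.9 and 24.8 CPM after 4 h of NF and 46.3 and 40.8 CPM after 20 h (edgeR adjusted p = 0.0233 and 0.0159). ERN1 (Medtr7g085810), an AP2 type factor, lay at 43.1 CPM in the control, 87.7 and 85.1 CPM after 4 h of NF and 128 and 136 CPM after 20 h, and was called at 20 h only (edgeR adjusted p = 0.0700 and 0.0226). The difference in ERN1 between the times was not called (edgeR adjusted p = 0.141). LYK10 and the ubiquitin ligase gene PUB1 were called at both times. NF-YA1 had 0 counts in the control, so its mean level was at least 195-fold higher at 4 h and at least 167-fold higher at 20 h, against a floor of 3 counts in the control library. Its NF 4 h libraries were 3.15-fold apart, and with the lower library of each time alone (replicate 2) the bounds were 93.8-fold and 152-fold. ENOD11, ENOD12, Ann1, ABIL1-like and NF-YA1 were called at 20 h and not at 4 h, and ERN2 and RIP1 at neither time. For NF-YA1 the adjusted p at 4 h was 0.066 (edgeR). None of the genes called at 20 h only was called between the times (edgeR adjusted p from 0.102 for ENOD11 to 0.963 for NF-YA1).

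Relatives of the infection genes came from the list of responding genes of the study, so their choice used these samples. A LIN-like gene (Medtr8g103227), annotated as an E3 ubiquitin ligase, was at 1.75 CPM in the control, 37.7 and 25.5 CPM after 4 h of NF and 23.4 and 15.7 CPM after 20 h. Its log2 fold change was 4.17 at 4 h (SE 0.43) and 3.48 at 20 h (SE 0.42) (edgeR adjusted p = 0.0331 and 0.0329). In the same libraries LIN had 335 CPM in the control and no call. A gene annotated as a remorin (Medtr5g017290) had 12 counts in the control, 22 and 11 after 4 h of NF and 92 and 54 after 20 h (log2 2.65, SE 0.70, at 20 h, edgeR adjusted p = 0.198). Of 3 genes annotated as EXO70, the exocyst subunit family that in M. truncatula includes a partner of vapyrin and LIN, none was called. Medtr2g096230 had log2 fold changes of 1.19 and 1.10, Medtr1g067480 of −0.06 and −1.07, and Medtr4g062330 of 0.20 and −0.58 at 4 h and 20 h.

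**Figure D4:**
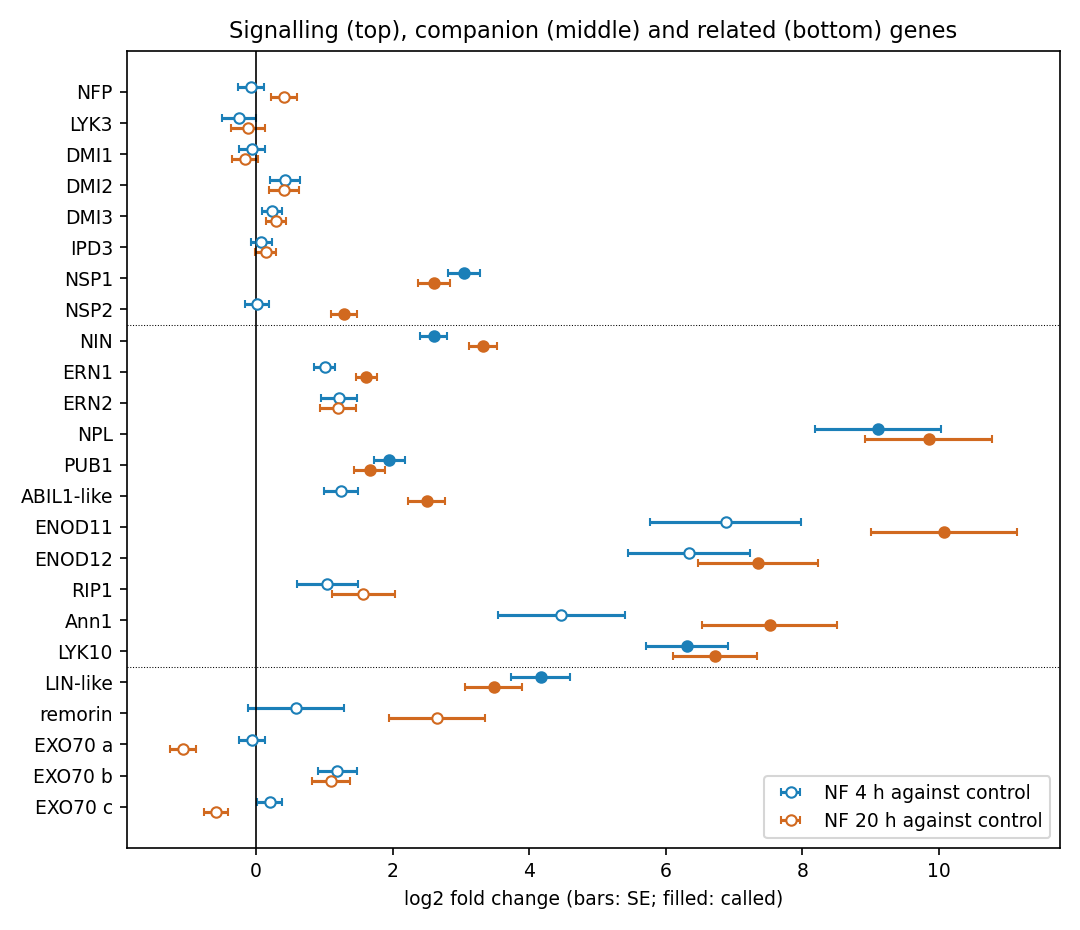
Log2 fold changes with SE bars for the signalling genes (top), the infection-linked genes (middle, NF-YA1 left out because its control count was 0) and the relatives of the infection genes (bottom), at 4 h in blue and at 20 h in orange, filled where the edgeR test was passed. The signalling genes other than NSP1 and NSP2 lie within 0.43 of 0, and LIN-like is the only filled relative.

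For each infection gene, the genes with the nearest profile were sought by the Euclidean distance between log2(CPM + 1) profiles centred over the 5 libraries, among 17061 candidates. The same pair of genes, Medtr8g040940 (annotated as a hypothetical protein) and NPL (Medtr3g086320), was nearest to RPG (distances 0.52 and 0.53) and to CBS1 (0.30 and 0.50). Medtr3g012440, annotated as a CXE carboxylesterase, was among the nearest of both vapyrin (0.23) and FLOT4 (0.22). Among the 5 infection genes whose mean level reached 1 CPM, vapyrin and FLOT4 were closest (0.41), followed by RPG and CBS1 (0.71), and RPG and LIN were farthest apart (4.65). Profiles over 5 libraries with 1 control cannot separate many genes, and with a pseudocount of 5 CPM in place of 1 only 2 of the 14 neighbours were found again.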

How the data were processed

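After quality trimming, the authors used Bowtie 2 in local mode (version 2.0 in the submitters' processing notes) with the Mt4.0v1 transcripts as reference, removed reads with equally good hits and deposited, without normalization, the counts of pairs and of single reads per transcript, with its length. Library sizes are the sums of the deposited counts of pairs. CPM and FPKM were computed here from them.

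The 5 libraries were fitted together in edgeR 4.0.16 (R 4.3.3) with each library scaled by its own total (the study gave the replicates of a treatment a common factor), the expression filter of edgeR and 1 coefficient per treatment. Only the NF replicates give residual degrees of freedom (2), and the spread of the control is unmeasured. The SE is the log2 fold change divided by the square root of the F statistic. Genes are given by name if they belong to the 7 infection genes, to the lists of 8 signalling genes, 12 infection-linked genes, 5 relatives and 12 cell markers, or to the 2 nearest profiles of an infection gene. These genes and lists were chosen with earlier results of these data known.

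Alternatives were TMM and DESeq2 size factors, other filters, DESeq2 1.42.0, the edgeR exact test, only the groups compared, the replicate number as a block, and each NF library left out. Single reads in place of pairs were added after the data had been seen. Replicates of a treatment differed by more than sampling noise. Tables used Python 3.11.15 with pandas 2.3.3, numpy 2.4.6 and scipy 1.17.1, and plots matplotlib 3.10.9. A RefSeq gene table could not be joined to these identifiers.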

Additional observations from a re-analysis of the deposited data

Results flagged for a closer look

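The level of FLOT2 was above the control in both NF 4 h libraries and below it in both NF 20 h libraries, with means that differed by 0.0899 CPM. The difference was not tested, since FLOT2 did not pass the expression filter, and it rests on 2 to 8 counts per library (4 in the control and 4 in NF 20 h replicate 2). The counting intervals of the ratio to the control, 0.555 to 7.56 at 4 h and 0.182 to 3.69 at 20 h, both include 1.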

How the results depend on the processing

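RPG, CBS1 and FLOT4 were called at both times in every alternative that tested them; RPG drops out under a minimum of 10 counts in every library, since its control count was 3. The count of infection genes called against the control was 3 in the main fit and ran from 2 to 4, and the fits that leave out an NF library gave 4 at 4 h and 3 to 4 at 20 h; the gene added was vapyrin. Between the NF times the count rose from 0 to 1 (CBS1) with DESeq2, with the edgeR exact test and with the replicate block. The labels give only a number to the replicates, so the block was not used for the main results, although the difference between replicates was correlated between the NF times (r = 0.62 across 17061 genes, which are not independent). With the block, 4 infection genes were called at 4 h and at 20 h, vapyrin at adjusted p = 4.40e-05 and 4.80e-05 and CBS1 between the times at 0.00140 (edgeR), LIN at 20 h turned from 0.10 to −0.14, and the calls over all genes went from 151 to 1650, from 325 to 2706 and from 11 to 1952 (7.47, 12.2 and 8.84% of the genes tested). The block also called 11, 12 and 7 of the 12 infection-linked genes, all upwards, at 4 h, at 20 h and between the times, in place of 4, 10 and 0. It called 2, 5 and 4 of the 5 relatives in place of 1, 1 and 0, with all 3 EXO70 genes at 20 h, and 1, 2 and 3 of the 8 signalling genes in place of 1, 2 and 0. Of the 3 tested markers of other cells, it called 2 upwards at 4 h (SCARECROW and SHORT-ROOT). At 20 h it called 1 upwards (SCARECROW) and 1 downwards (SOMBRERO), and between the times 2 downwards (SCARECROW and SOMBRERO). Of the 8 root hair markers it called 1 upwards at 4 h, 3 upwards at 20 h and 0 between the times. In the main fit SCARECROW was the only marker called, at 4 h and at 20 h. Over all genes, other alternatives gave 87 to 863, 222 to 1322 and 0 to 918 calls. With 1 NF library left out, uncalled values changed sign at 20 h against control for LIN (−0.19 to 0.33) and between the NF times for vapyrin (−0.40 to 0.18), RPG (−0.061 to 1.30), LIN (−0.48 to 0.038) and SYMREM1 (−0.24 to 0.89). In these fits the lone library is assumed to vary like the others. Of 228 values of the infection genes under alternatives, 201 kept direction and side of the threshold, 20 newly passed it and 7 changed sign. The cause was not tested.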
